A study of Drosophila melanogaster with 2 samples.

Results

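Genes for cytoplasmic ribosomal proteins often had a peak of the heterochromatin protein Su(var)2-HP2 just upstream of their start sites in Drosophila melanogaster embryos. The genes were chosen by symbol, with no measured value in the rule, though earlier results of these data were known by then. All annotated protein-coding genes whose symbol starts with RpL or RpS were taken, with the genes for the stalk proteins RpLP0, RpLP1 and RpLP2 and the small-subunit gene sta. RpL5, RpL15, RpL38 and RpS3A were left out. This gave 89 of 13968 protein-coding genes, 51 for the large and 38 for the small subunit. The subunit was read from the symbol alone, so RpL7-like, RpL24-like and RpLP0-like count as large-subunit genes. Of the 89 genes, 87 lie on the chromosome arms. RpL10 and RpL21 lie just beyond the rounded borders set for the arms, at 23 Mb of 3L and 22 Mb of 2L. The count in the reproducible peak list is given with and without them, and other counts of the 89 genes include both. A summit within 500 bp of an annotated start site was reported for 34 of the 89 genes in the reproducible peak list, and for 71 genes in the larger pooled list.

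Ribosomal proteins assemble with ribosomal RNA into the large and small subunits of the ribosome, and a growing embryo needs them in balanced amounts. In Drosophila, loss of a copy of many of these genes gives the Minute phenotype of slow growth and short bristles. Most of the genes are transcribed from promoters that begin at a pyrimidine-rich TCT motif in place of the usual initiator. Su(var)2-HP2 is a partner of the heterochromatin protein HP1 and is known mainly from pericentromeric heterochromatin and chromosome 4.

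The study mapped Su(var)2-HP2 by chromatin immunoprecipitation and sequencing (ChIP-seq) with an antibody against GFP, in 1 group of 2 biological replicates that the labels number 4 and 6. Both replicates were whole embryos 0 to 10 h old from a transgenic line that stably expresses Su(var)2-HP2 with GFP fused to its C terminus, so cells of all embryonic tissues are mixed, and no promoter or insertion site of the transgene is given in the labels. No untagged or treated embryos are in the group, so comparisons are between genes and between the replicates, and no test of a condition is possible. The replicate lists and the pooled list hold 30000 peaks each, of which 11926 in replicate 4, 14242 in replicate 6 and 12389 in the pooled list have a q-value under 0.05. The list thresholded on the irreproducible discovery rate (IDR) holds fewer peaks, each one a peak of the pooled list and together exactly the highest in it by signal value, the lowest at 121. From each replicate list a strong set of the same number of highest peaks was taken. The authors' signal value per peak has no stated scale, so for each replicate it was divided by the median over the strong set of that replicate, 127 in replicate 4 and 90.1 in replicate 6. A relative signal of 1 is therefore that of a middle-ranked strong peak. Read numbers are not in the files, so the depth is unknown.

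The start regions of 10 of the genes are shown because they carry the features to which the peaks are compared. The first 6 are the genes with the strongest reproducible summits, and the other 4 had no summit in any list and no close paralogue in the set. Genes on the chromosome arm that also carries RpL12 and RpL39 are not shown. Each window runs from 150 bases before a start site to 20 bases from it on, 5′ to 3′ on the strand of the gene, from the RefSeq genome of the release 6 assembly (dm6). Capitals mark the TCT motif (TCTTT or CCTTT, counted where its first base lay within 10 bases of the start site), the DNA replication-related element DRE (TATCGATA), the Motif 1 core (GGTCACAC) and E-boxes (CACGTG or CAGCTG), the last 3 kinds on either strand. The windows with a summit are RpS27A at chr2L:10408202-10408371 (plus strand), RpL10 at chr3L:23095452-23095621 (minus strand), RpL21 at chr2L:22247856-22248025 (minus strand), RpS27 at chr3R:25247495-25247664 (minus strand), RpL7 at chr2L:10200854-10201023 (plus strand), RpL14 at chr3L:8600856-8601025 (plus strand). The windows without a summit are RpL18 at chr3L:7241332-7241501 (minus strand), RpS21 at chr2L:2855920-2856089 (plus strand), RpS30 at chr3R:20850366-20850535 (plus strand), RpS9 at chr3L:9511512-9511681 (minus strand).
RpS27A: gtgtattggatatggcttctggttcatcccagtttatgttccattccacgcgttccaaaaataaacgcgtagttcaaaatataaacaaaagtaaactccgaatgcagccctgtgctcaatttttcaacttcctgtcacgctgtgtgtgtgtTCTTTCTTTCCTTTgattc
RpL10: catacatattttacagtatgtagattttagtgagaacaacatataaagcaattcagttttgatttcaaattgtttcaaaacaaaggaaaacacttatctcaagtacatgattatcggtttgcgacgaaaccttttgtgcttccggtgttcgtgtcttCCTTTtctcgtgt
RpL21: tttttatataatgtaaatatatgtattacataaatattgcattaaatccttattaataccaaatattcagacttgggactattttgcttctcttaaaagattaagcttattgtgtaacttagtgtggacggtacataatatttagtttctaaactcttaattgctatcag
RpS27: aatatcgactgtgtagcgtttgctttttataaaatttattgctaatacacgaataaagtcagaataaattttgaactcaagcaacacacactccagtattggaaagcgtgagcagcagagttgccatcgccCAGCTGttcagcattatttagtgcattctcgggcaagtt
RpL7: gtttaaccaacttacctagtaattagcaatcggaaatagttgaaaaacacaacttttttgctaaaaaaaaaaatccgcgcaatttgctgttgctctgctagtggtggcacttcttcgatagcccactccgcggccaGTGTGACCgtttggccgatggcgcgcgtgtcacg
RpL14: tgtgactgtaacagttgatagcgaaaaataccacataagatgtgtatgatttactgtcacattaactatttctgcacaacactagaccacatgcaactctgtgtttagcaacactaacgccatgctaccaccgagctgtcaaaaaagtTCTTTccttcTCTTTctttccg
RpL18: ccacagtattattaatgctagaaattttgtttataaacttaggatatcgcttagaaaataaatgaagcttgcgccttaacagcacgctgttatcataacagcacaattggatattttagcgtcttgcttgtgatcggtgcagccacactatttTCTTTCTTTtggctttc
RpS21: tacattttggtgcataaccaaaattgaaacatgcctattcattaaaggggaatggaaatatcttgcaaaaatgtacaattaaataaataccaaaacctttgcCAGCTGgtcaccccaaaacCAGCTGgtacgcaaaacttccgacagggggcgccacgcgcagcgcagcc
RpS30: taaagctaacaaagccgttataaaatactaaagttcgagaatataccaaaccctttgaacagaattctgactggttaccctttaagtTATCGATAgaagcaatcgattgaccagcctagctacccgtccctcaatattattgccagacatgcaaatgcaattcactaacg
RpS9: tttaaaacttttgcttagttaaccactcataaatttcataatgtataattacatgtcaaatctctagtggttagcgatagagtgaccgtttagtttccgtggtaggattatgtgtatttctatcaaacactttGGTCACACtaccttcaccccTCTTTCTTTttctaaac
All 6 reproducible summits fell inside their window. The TCT motif stood at the start site shown in 3 of the 6 genes with a summit and in 2 of the 4 without. In the remaining 5 genes it stood at another annotated start site, 41 to 96 bp downstream, so all 10 genes had it. Those start sites are shown with 25 bases each, in which capitals mark the TCT motif alone. They are RpL21 at chr2L:22247819-22247843 (minus strand), RpS27 at chr3R:25247458-25247482 (minus strand), RpL7 at chr2L:10201090-10201114 (plus strand), RpS21 at chr2L:2856101-2856125 (plus strand), RpS30 at chr3R:20850587-20850611 (plus strand).
RpL21: tcaagtagccaTCTTTCTTTCTTTt
RpS27: atttaccccacttCCTTTtccgtgt
RpL7: gcacgtttccggTCTTTCTTTccct
RpS21: cagctgtcattTCTTTcTCTTTttc
RpS30: cgccaTCTTTCTTTttcgggatccg
The same letters thus lay at genes with the strongest summits and at genes with none.

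A summit was called at ribosomal protein genes more often than at arm genes in every list. In the IDR list 34 of 89 genes had a summit, 38.2%, against 8.01% of the 13672 protein-coding genes of the arms. Without RpL10 and RpL21 the count was 32 of 87, or 36.8%. These strong summits were therefore not limited to the genes beyond the borders. In the pooled list 71 of 89 genes had a summit, 79.8%, against 37.1% of arm genes. In the list of replicate 4 it was 74 genes, 83.1%, against 40.2% of arm genes. In the list of replicate 6 it was 64 genes, 71.9%, against 34.8% of arm genes. The replicates differed more for strong peaks. The strong set of replicate 4 held summits of 42 genes, 47.2%, against 7.62% of arm genes. The strong set of replicate 6 held summits of 17 genes, 19.1%, against 7.91% of arm genes. The share of arm genes was thus nearly the same in both strong sets, and that of ribosomal protein genes was not. Arm genes here include the 87 ribosomal protein genes.

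**Figure D1:**
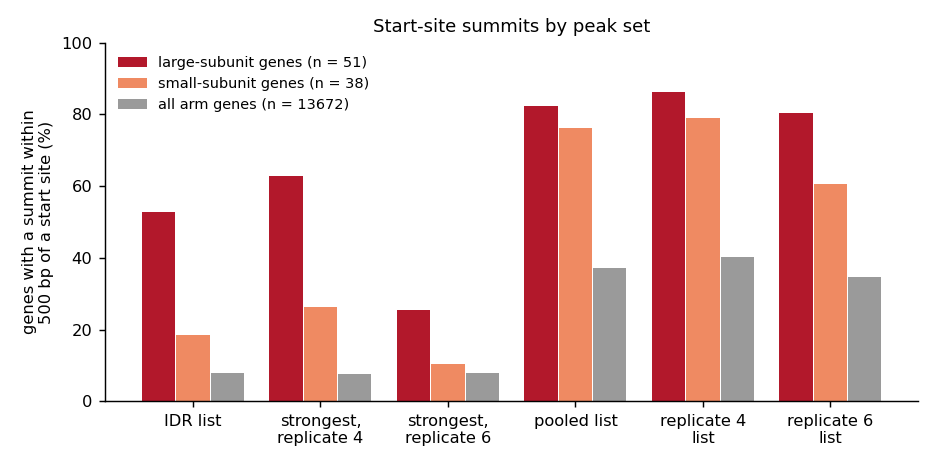
Share of genes (percent, vertical axis) with a summit within 500 bp of a start site, by peak set, for 51 large-subunit genes, 38 small-subunit genes and 13672 arm genes. In the IDR list the bars stand at 52.9% for the large subunit, 18.4% for the small subunit and 8.01% for arm genes.

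Genes for the large subunit made up most of the strong calls. In the IDR list 27 of 51 large-subunit genes (52.9%) and 7 of 38 small-subunit genes (18.4%) had a summit, against 8.01% of arm genes. In the strong set of replicate 4 the counts were 32 of 51 (62.7%) and 10 of 38 (26.3%), against 7.62%. In that of replicate 6 they were 13 of 51 (25.5%) and 4 of 38 (10.5%), against 7.91%. The small-subunit share there was thus close to that of arm genes. In the pooled list the subunits lay closer, with 42 of 51 large-subunit genes (82.4%) and 29 of 38 small-subunit genes (76.3%). The share of arm genes was 37.1%. In the list of replicate 4 it was 44 of 51 (86.3%) and 30 of 38 (78.9%), against 40.2% of arm genes. In that of replicate 6 it was 41 of 51 (80.4%) and 23 of 38 (60.5%), against 34.8%. The share was higher for the large subunit in each of these lists and sets. The large-subunit counts include RpL10 and RpL21 beyond the borders, which had a summit in each of them. By chromosome, the IDR list had summits at 8 of 13 ribosomal protein genes on 3L (61.5%, against 7.4% of arm genes there), 7 of 18 on 2L (38.9%, against 9.01%), 9 of 23 on 3R (39.1%, against 8.39%), 7 of 20 on 2R (35%, against 7.74%) and 3 of 15 on X. On X all 15 ribosomal protein genes had a pooled summit, against 46.7% of arm genes of X, while 20% of them had an IDR summit, against 7.3% of those arm genes. The X-linked genes thus all had a call, and few had a strong one. The IDR counts of 3L and 2L include RpL10 and RpL21, both beyond the borders and with an IDR summit. The arm genes beside them do not include these genes.

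The strongest summit was at RpS27A (FBgn0003942), which encodes a small-subunit protein made as a fusion with ubiquitin. Its summit lay at position 10408229 of 2L, 123 bp upstream of the start site shown above, with a pooled signal value of 2787 and rank 46 in the pooled and IDR lists. Relative signal was 13.7 in replicate 4 and 12.7 in replicate 6, or 13.2 ± 0.674 (SD, n = 2). The replicates lay close together, at ranks 28 and 59 of their lists. The summit was equally far, 123 bp, from the start site of its neighbour Ip259 and cannot be given to either gene. Other genes on 2L between RpL7 and RpS27A had summits that ranged from weak to equally strong. Relative signal in replicates 4 and 6 was 13.7 and 14 at me31B, 14.5 and 14.1 at CtsL4, and 0.599 and 0.182 at chico. High signal in this stretch of 2L was thus not limited to ribosomal protein genes.

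The next 2 were the genes beyond the borders. RpL10 (FBgn0024733), for a large-subunit protein needed in joining the subunits, had a summit at position 23095593 of 3L, 122 bp upstream of the start site, with pooled rank 56. Its relative signal was 12.3 in replicate 4 and 12.9 in replicate 6 (12.6 ± 0.46, SD, n = 2). RpL21 (FBgn0032987), for another large-subunit protein, had a summit at position 22247942 of 2L with pooled rank 114 and relative signals of 7.08 in replicate 4 and 8.1 in replicate 6 (7.59 ± 0.721, SD, n = 2). These 3 summits also stood in the widest called intervals of the set, 2232 bp at RpS27A, 3311 bp at RpL10 and 3428 bp at RpL21, where the median over the 34 genes was 258 bp. At RpL10 and RpL21 replicate 6 was the higher one, unlike at most of the genes.

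On the arms, RpL12 and RpL39 followed. RpL12 (FBgn0034968), whose protein lies at the base of the ribosomal stalk, had a summit at position 24060329 of 2R, pooled rank 168, with relative signals of 5.48 in replicate 4 and 3.86 in replicate 6 (4.67 ± 1.15, SD, n = 2). RpL39 (FBgn0023170), for a small protein of the exit tunnel, had a summit at position 24062678 of 2R, pooled rank 312, with relative signals of 2.85 in replicate 4 and 2.26 in replicate 6 (2.56 ± 0.416, SD, n = 2). The RpL39 summit lay 247 bp upstream of the start site, the farthest of the 34. These 2 genes are close neighbours on 2R, and each summit is a peak of its own.

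The genes that followed among the 12 with the highest mean relative signal lay near 1. RpS27 (FBgn0039300), for a small-subunit zinc-finger protein, had a summit at 25247501 of 3R, pooled rank 552, with 1.74 in replicate 4 and 1.13 in replicate 6 (1.44 ± 0.433). RpL7 (FBgn0005593) had a summit at 10201020 of 2L, pooled rank 555, with 1.82 in replicate 4 and 1.03 in replicate 6 (1.43 ± 0.554). RpL31 (FBgn0285949), for a protein by the tunnel exit, had a summit at 9587101 of 2R, pooled rank 611, with 1.53 in replicate 4 and 1.24 in replicate 6 (1.38 ± 0.21). In all 3 genes replicate 4 was the higher one. RpL14 (FBgn0017579) had a summit at 8600985 of 3L, pooled rank 627, with 1.54 in replicate 4 and 1.06 in replicate 6 (1.3 ± 0.336). RpS12 (FBgn0286213), which in flies is also known for its part in cell competition between Minute and normal cells, had a summit at 13023264 of 3L, pooled rank 1058, with 0.641 in replicate 4 and 1.48 in replicate 6 (1.06 ± 0.596). RpS12 went the other way from RpL14 and the 3 genes before it, with the higher relative signal in replicate 6. Its highest summit lay at -19 bp in replicate 4 and at -241 bp in replicate 6, so the values belong to different places. RpL8 (FBgn0261602), for a protein near the catalytic centre of the large subunit, had a summit at 2587298 of 3L, pooled rank 928, with 1.09 in replicate 4 and 0.955 in replicate 6 (1.02 ± 0.099, SD, n = 2 throughout).

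**Figure D2:**
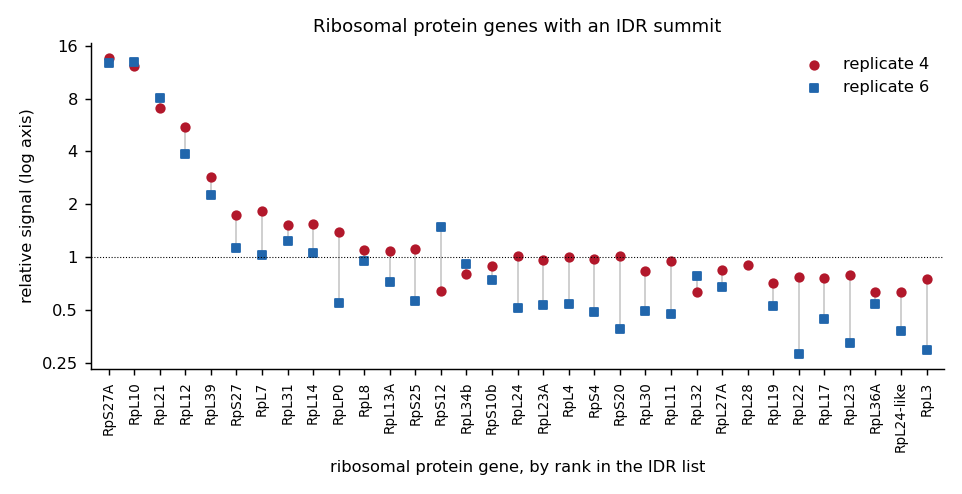
Relative signal (log axis, no unit) in replicate 4 (circles) and replicate 6 (squares) at 33 of the 34 ribosomal protein genes with an IDR summit, ordered by rank in the IDR list. The values fall from 13.7 and 12.7 at RpS27A to 0.752 and 0.294 at RpL3, and RpL28 has no value in replicate 6.

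The other 22 genes with an IDR summit were RpLP0, RpL13A, RpS25, RpL34b, RpS10b, RpL24, RpL23A, RpL4, RpS4, RpS20, RpL30, RpL11, RpL32, RpL27A, RpL28, RpL19, RpL22, RpL17, RpL23, RpL36A, RpL24-like and RpL3. RpLP0 encodes the core of the ribosomal stalk, RpL11 a protein that binds 5S ribosomal RNA, and RpL3 a protein of the peptidyl transferase centre. Relative signal at RpLP0 was 1.39 in replicate 4 and 0.55 in replicate 6 (0.968 ± 0.591). At RpL3, the lowest with rank 2004, it was 0.752 in replicate 4 and 0.294 in replicate 6 (0.523 ± 0.324). Of the 34 genes, 33 had a summit in all 4 lists. RpL28 had an IDR summit of rank 1443 and 0.899 in replicate 4 with no summit in replicate 6, so that an IDR summit does not show a call in both replicates.

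Few of the summits were among the top IDR peaks. Ranks of the 34 ran from 46 to 2004 with a median of 1228, against a median of 974 for the arm genes with an IDR summit. Ranks 1 to 500 held 5 of the 34 (14.7%) and 24.4% of those arm genes. Ranks over 1000 and up to 1500 held 15 (44.1%) and 24.8% of those arm genes. In mean relative signal the median was 0.811 for 33 ribosomal protein genes called in both replicates (0.505 to 13.2) and 0.977 for 1084 arm genes (0.328 to 14.3). Over all genes called in both replicates, with or without an IDR summit, it was 0.555 for 61 ribosomal protein genes and 0.337 for 3878 arm genes. The ribosomal protein genes were thus above arm genes over all calls, and in the IDR list their signals were moderate.

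Below the limit of the IDR list stood many genes with weaker calls. The first outside it were RpS18 at pooled rank 2018, with 0.667 in replicate 4 and no call in replicate 6, and RpL37A at rank 2031, with 0.777 in replicate 4 and 0.253 in replicate 6. In all, 28 genes had a summit in the pooled list and in both replicate lists but not in the IDR list. Among them were RpL7-like, RpL7A, RpL9, RpL10Ab, RpL13, RpL26, RpL35, RpL35A, RpL37-1, RpL37A, RpL40, RpLP1, RpLP2, RpS2, RpS3, RpS5a, RpS6, RpS7, RpS13, RpS14a, RpS14b, RpS15, RpS15Aa, RpS19a, RpS23, RpS26 and RpS28b. These include the stalk proteins RpLP1 and RpLP2 and RpS6, the target of S6 kinase. A further 9 genes had a summit in the pooled list and in replicate 4 but none in replicate 6, among them RpL36, RpLP0-like, RpS18, RpS28a, RpS28-like, RpS29 and sta. None of the 71 genes with a pooled summit was called in replicate 6 without replicate 4. Shares of arm genes are not given for these patterns, nor for the genes with no pooled summit below. Over all arm genes, 40.2% had a summit in the list of replicate 4 and 34.8% in that of replicate 6. The pattern counts alone thus do not set these genes apart.

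The 18 genes with no pooled summit fell into 3 sets. RpL6, RpL41 and RpS16 had a summit in replicate 4 only. RpL41, for the smallest ribosomal protein, ranked 1032 there with a relative signal of 0.977, and RpS16 ranked 1927 with 0.639, so both were among the strong peaks of replicate 4 and had no pooled summit within 500 bp. RpL27, RpL34a and RpS24 had a summit in replicate 6 only, at ranks 6983, 2905 and 11908. The other 12 had none in any list: RpL10Aa, RpL18, RpL22-like, RpL29, RpL37-2, RpS5b, RpS9, RpS10a, RpS15Ab, RpS19b, RpS21 and RpS30.

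Relative signal at ribosomal protein genes was mostly higher in replicate 4. Of 61 genes called in both replicates, 52 were higher in replicate 4, or 85.2%, against 59.6% of 3878 arm genes. Of the 33 with an IDR summit, 28 were higher in replicate 4, or 84.8%, against 43.3% of 1084 arm genes. The median log2 ratio of replicate 4 over replicate 6 was 0.75 for the 61 genes and 0.18 for arm genes, and 0.62 for the 33 genes and -0.08 for arm genes with an IDR summit. By rank in the list in place of relative signal, 51 of 61 genes (83.6%) stood higher in replicate 4, against 54.1% of arm genes. Of 46 genes with replicate summits within 100 bp of each other, 42 (91.3%) had the higher relative signal in replicate 4, against 55.2% of arm genes. The share was above that of arm genes in each of these counts. The labels give both replicates the same age range, line and antibody, and the cause of the difference was not tested.

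The 5 largest ratios were at genes outside the IDR list. RpS5a had 0.593 in replicate 4 and 0.179 in replicate 6 (log2 ratio 1.73). RpL37A, with the values given above, had a log2 ratio of 1.62. RpL37A was in the strong set of replicate 4, at rank 1433, and neither gene was in that of replicate 6. RpS15Aa had 0.391 in replicate 4 and 0.132 in replicate 6 (log2 ratio 1.57). RpLP1 had 0.575 in replicate 4 and 0.196 in replicate 6 (log2 ratio 1.56). At the other end the lowest ratio was that of RpS12, with a log2 ratio of -1.21 between summits 222 bp apart. The next 4 were RpL7-like (0.184 in replicate 4 and 0.25 in replicate 6, log2 ratio -0.44), RpL10Ab (0.286 and 0.37, -0.37), RpL32 (0.636 and 0.776, -0.29) and RpS26 (0.468 and 0.57, -0.28). Apart from RpS12, the differences in favour of replicate 6 were small beside those in favour of replicate 4. At RpS5a, RpS15Aa, RpS12, RpL7-like, RpL10Ab and RpS26 the replicates' summits lay over 100 bp apart. The ratios of these genes compare different summits and do not show a change at a single place.

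**Figure D3:**
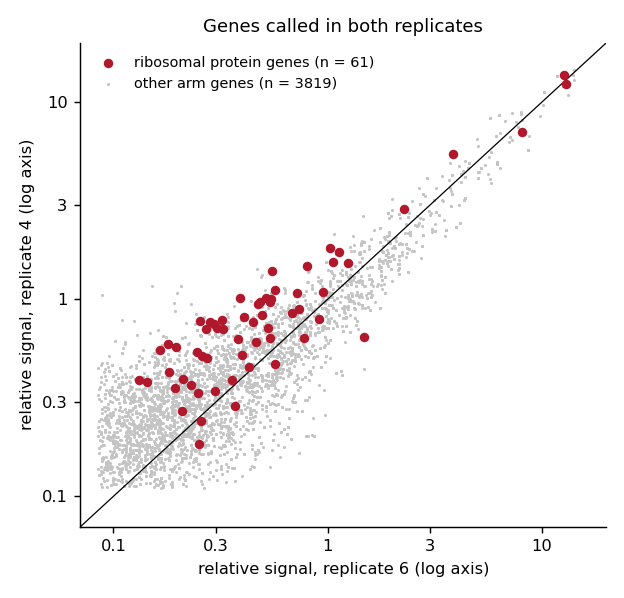
Relative signal in replicate 4 (vertical, log axis) against replicate 6 (horizontal, log axis) for 61 ribosomal protein genes and 3819 other arm genes called in both replicates, with the line of equal values. Of the ribosomal protein genes, 52 lie above the line, and RpS12, whose replicate summits are 222 bp apart, lies farthest below it.

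The 2 strong sets overlapped in one direction. All 17 ribosomal protein genes among the strongest peaks of replicate 6 were also among those of replicate 4, against 76.6% of arm genes in that set. Of the 42 among the strongest of replicate 4, 17 were also among the strongest of replicate 6, 40.5%, against 79.5% of arm genes. Of the same 42, 4 had no summit at all in replicate 6 (9.52%, against 1.63% of arm genes). Where both replicates called an IDR gene, they mostly called the same place, with summits within 100 bp of each other at 32 of 33 genes (97%, against 88.8% of arm genes). The gap between the replicates' summits had a median of 34 bp at these genes and 32 bp at arm genes.

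IDR summits lay closer to the start site at ribosomal protein genes than at arm genes. Their median position was -46.5 bp from the nearest start site of the gene (minus is upstream; -247 to 16 bp), against -150 bp for arm genes (-497 to 494 bp). Of the 34 summits, 30 lay between 150 bp upstream and the start site, or 88.2%, against 43% at arm genes. Within 100 bp of the start site on either side lay 26, or 76.5%, against 26.4% at arm genes. The share upstream was alike, with 32 of 34 (94.1%) and 92.7% at arm genes. In the replicates' own lists the median position at the same genes was -35 bp in replicate 4 and -87 bp in replicate 6, against -145 and -154 bp at arm genes. Taken over the genes of each replicate's strong set, it was -29.5 bp for the 42 genes of replicate 4 and -109 bp for the 17 of replicate 6. Both replicates thus placed these summits nearer to the start site than at arm genes, replicate 4 more so.

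The 2 exceptions downstream were RpS27, 13 bp into the gene, and RpL7, 16 bp into the gene. Measured from the TCT start site shown above, the RpS27 summit lay at -29 bp and the RpL7 summit at -80 bp. By annotation 28 of the 34 summits lay outside their gene and 6 in a 5' UTR, those of RpL7, RpL17, RpL30, RpLP0, RpS4 and RpS27. At RpL17, RpL30, RpLP0 and RpS4 the UTR was that of a longer transcript, since the summit lay upstream of the nearest start site. The called intervals had a median width of 258 bp (117 to 3428 bp), against 372 bp at arm genes. Several of the 34, such as RpL3, RpL19 and RpS25, were exactly 430 bp wide, as were most of the weaker pooled calls. The median thus mixes this repeated width with others.

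**Figure D4:**
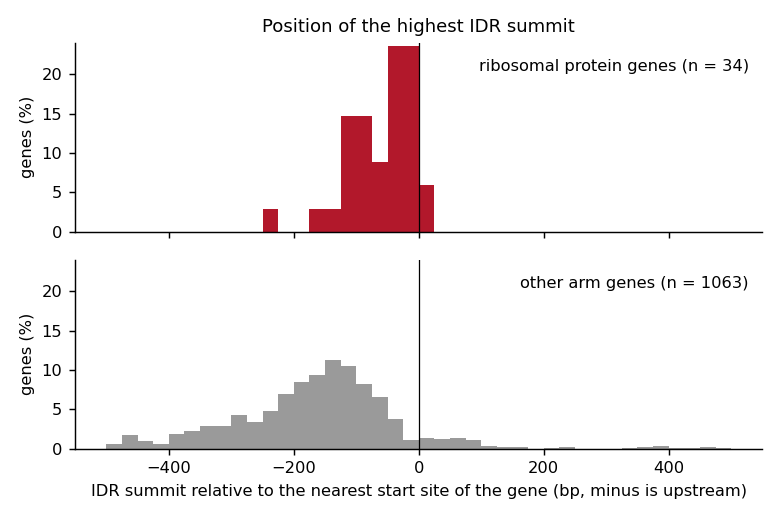
Position of the highest IDR summit relative to the nearest start site of the gene (horizontal axis in bp, minus is upstream), as percent of genes, for 34 ribosomal protein genes (above) and 1063 other arm genes (below). The ribosomal protein genes cluster next to the start site, with 30 of 34 from 150 bp upstream to 0.

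Many summits could belong to a second gene as well. At 23 of the 34 genes another gene, transposable elements aside, had a start site within 500 bp of the same summit, 67.6%, against 66.8% of arm genes with an IDR summit. With protein-coding neighbours only, it was 19 of 34, 55.9%, against 64.3%. Sharing was thus about as common as at arm genes. The count depended on the peak set and the distance, with 12 of 17 genes shared in the strong set of replicate 6 alone, 27 of 42 in that of replicate 4 alone, and 12 of 34 within 250 bp. The distances differed, since another gene's start site was nearer to the summit at 2 of 34 genes (5.88%), against 32% of arm genes. These were RpL24-like, whose summit was 34 bp from CG5276 and 122 bp from its own start site, and RpL19, with 53 bp to CG3776 and 78 bp to its own.

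Among the 12 strongest, RpS27A shared its summit with Ip259, RpL12 with the noncoding gene lncRNA:CR44814, RpL39 with the Ras-family gene Rap2l, RpS27 with the nucleoporin gene Nup37 and sisRNA:CR46364, and RpL7 with Ripalpha, which lay 46 bp from it. RpL31 shared its summit with CG12929, RpL14 with Nelf-E of the negative elongation factor and a snoRNA gene, and RpS12 with a snoRNA gene 316 bp from the summit. These snoRNA genes and sisRNA:CR46364 lay on the same strand as the ribosomal protein gene, so they need not mark a second promoter. RpL8, RpL10 and RpL21 shared theirs with no gene. Further down, RpL28 shared its summit with eIF1, a translation initiation factor gene 338 bp away, RpL4 with the splicing gene BCAS2 and RpL13A with Dph4 and Spec2. Others with a neighbour were RpL3 (CG6693), RpL17 (a tRNA and a snoRNA gene), RpL19 (CG3776), RpL22 (lncRNA:CR44966), RpL24-like (CG5276), RpL32 (CG7943), RpL34b (CG8132), RpLP0 (CG7130), RpS20 (CG17271) and RpS25 (CG4820).

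The TCT motif was more frequent at ribosomal protein genes than at arm genes. Counted within 10 bases of a start site, its share was similar in those with and without an IDR summit. The motif stood at a start site of 29 of 34 genes with an IDR summit (85.3%) and of 44 of 55 without one (80%), or 73 of 89 in all, against 10.3% of arm genes with an IDR summit and 6.16% of all arm genes. The usual initiator (TCAGT) stood at 1 of 34 genes and 0 of 55, against 15.1% and 17.8%. Every annotated start site of a gene was searched, on the strand of the gene, with a mean of 1.7 start sites for the 89 genes and 1.4 for arm genes. Where the TCT motif had to begin within 2 bases of the start site, 27 of the 89 genes had it, 14 of 34 with an IDR summit (41.2%) and 13 of 55 without (23.6%), against 2.65% of arm genes with an IDR summit and 1.41% of all arm genes. The count thus depended on how close to the annotated start site the motif had to begin. Within 2 bases the share was higher at ribosomal protein genes with an IDR summit than at those without, and the difference was not tested.

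The other motifs were searched on both strands of 300 bases, from 250 before the most upstream start site to 50 from it on. DRE, bound by the factor Dref, was in 9 of 34 genes with an IDR summit (26.5%) and 19 of 55 without (34.5%), against 15.3% of arm genes with an IDR summit and 9.23% of all arm genes. CGATA, the core of the motif of the insulator protein BEAF-32, is part of the DRE and was in 23 of 34 (67.6%) and 42 of 55 (76.4%), against 54.7% and 47.2%. The Motif 1 core, bound by M1BP, was in 4 of 34 (11.8%) and 11 of 55 (20%), against 10.1% and 7.8%. All 3 were more frequent at ribosomal protein genes without an IDR summit than at those with one. The E-box CACGTG, of the type that Myc binds, was in 5 of 34 (14.7%) and 3 of 55 (5.45%), against 5.11% and 4.24%. The E-box CAGCTG was in 3 of 34 (8.82%) and 6 of 55 (10.9%), against 22.2% and 17.9%, and within 100 bp of the summit in 1 of 34 (2.94%), against 9.22% of arm genes with an IDR summit. GAGAGAG, of the type that GAGA factor binds, was in 0 of the 89 windows, against 6.39% and 5.9%. GAGAGAG was the only motif searched that no ribosomal protein gene had. TATAAA was in 15 of 34 (44.1%) and 27 of 55 (49.1%), against 48.9% and 45.8%. Within 100 bp of the summit TATAAA was at 9 of 34 (26.5%), against 44.9% of arm genes with an IDR summit. In the same summit windows 4 motifs were more frequent than at those arm genes. DRE was at 8 of 34 (23.5%, against 7.58%) and CGATA at 19 (55.9%, against 37.4%). The Motif 1 core was at 4 (11.8%, against 4.11%) and CACGTG at 4 (11.8%, against 3.01%). GAGAGAG was at 0, against 2.28%. Base composition was close, with a median GC content of 38.3% and 35.7% at ribosomal protein genes with and without an IDR summit, 36% at arm genes with one and 38% at all arm genes. These are matches of letters, and no factor was measured.

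**Figure D5:**
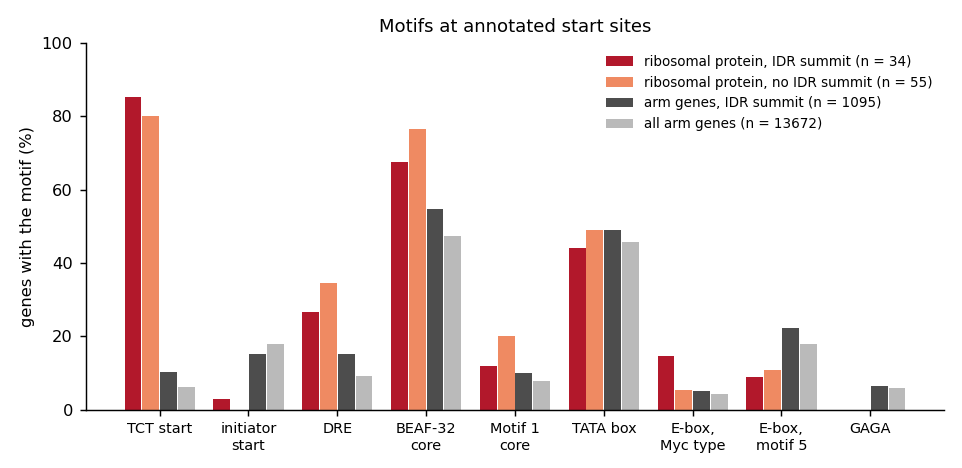
Percent of genes (vertical axis) with each motif, for 34 ribosomal protein genes with an IDR summit, 55 without, 1095 arm genes with an IDR summit and all 13672 arm genes. TCT stands at 85.3% and 80% at ribosomal protein genes and at 10.3% and 6.16% at arm genes, while DRE and the BEAF-32 core are more frequent at ribosomal protein genes without a summit than with one.

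Several ribosomal proteins have a second gene, and the copies differed in their calls. The set held 13 families with 27 genes, in which 19 genes had a pooled and 7 an IDR summit, while 52 and 27 of the other 62 genes had one. In 8 families of 2 genes only 1 gene had a pooled summit. RpS5a, RpS10b, RpS15Aa, RpS19a, RpL10Ab, RpL22, RpL34b and RpL37-1 had it, and their partners RpS5b, RpS10a, RpS15Ab, RpS19b, RpL10Aa, RpL22-like, RpL34a and RpL37-2 did not. At RpS10, for example, RpS10b had rank 1192 with 0.887 in replicate 4 and 0.736 in replicate 6, and RpS10a had no summit in any list. RpL24 and RpL24-like, whose yeast relative is a ribosome assembly factor, were the only one of these families with IDR summits at both genes. RpL24 had 1.01 in replicate 4 and 0.516 in replicate 6, and RpL24-like had 0.63 in replicate 4 and 0.38 in replicate 6. The authors' alignment settings for reads that map to both copies are not stated, so calls at close copies are uncertain.

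Many ribosomal protein genes carry small nucleolar RNA (snoRNA) genes, which guide modification of ribosomal RNA, in their introns. Of the 34 genes with an IDR summit 15 hosted a snoRNA (44.1%), as did 11 of the 55 without (20%), against 2.56% of arm genes with an IDR summit and 0.592% of all arm genes. Head-to-head start sites with a protein-coding gene within 500 bp were found at 16 of 34 (47.1%) and 21 of 55 (38.2%), against 55.2% and 27.7% at arm genes. Both shares were higher at ribosomal protein genes with an IDR summit than at those without, and neither difference was tested.

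Other genes of the protein synthesis machinery were also above the arm background in the IDR list, at lower shares. Genes for mitochondrial ribosomal proteins on the arms had an IDR summit at 12 of 72 (16.7%), with 11 among the strongest of replicate 4 and 12 among those of replicate 6. Translation factor genes on the arms had one at 10 of 50 (20%), with 8 in replicate 4 and 9 in replicate 6. Ribosome assembly genes had one at 6 of 22 (27.3%), with 5 in each replicate. In these lists the strong sets of the replicates held nearly equal counts, unlike the 42 and 17 cytoplasmic ribosomal protein genes. The whole replicate lists did differ. Mitochondrial ribosomal protein genes on the arms had a summit at 55 of 72 (76.4%) in replicate 4 and 38 (52.8%) in replicate 6. For translation factor genes it was 31 and 25 of 50, and for ribosome assembly genes 17 and 14 of 22. More calls in the whole list of replicate 4 were thus not particular to cytoplasmic ribosomal protein genes. The strongest genes were taken over the whole lists, with genes beyond the arms included. They were mRpS7 of the mitochondrial small subunit (12.3 ± 0.407) and the initiation factor gene eIF4B (9.51 ± 1.74). Among ribosome assembly genes it was the nucleolar GTPase gene Ns2 (1.59 ± 0.207, mean relative signal, SD, n = 2 throughout). The neighbour Cdk1 had the same relative signals as mRpS7, with the IDR summit nearer to its start site (-187 bp, against -213 bp). Both genes lie on 2L between RpL7 and RpS27A, in the stretch described above where other genes also had high signal.

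The 4 cytoplasmic ribosomal protein genes left out by the rule lie in pericentromeric DNA or on chromosome 4 and had a summit in every list and strong set. Their relative signal was 21.7 ± 5.76 at RpL5, 16.7 ± 1.63 at RpS3A, 15.4 ± 1.57 at RpL15 and 11.6 ± 1.62 at RpL38 (SD, n = 2). RpS27A on the arm of 2L and RpL10 beyond the border of 3L had values above that of RpL38, and the remaining 87 genes, where called in both replicates, lay at 7.59 or lower.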

How the data were processed

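ChIP-seq peak lists of 2 biological replicates of 1 group were used. Per the file listing the authors deposited, each replicate's peaks were called from its own alignment against a common control, pooled peaks from both alignments, and the IDR list from those 3 lists. The build is dm6, per the labels, and chromatin was sonicated to 200 to 800 bp. Neither the aligner nor the caller of the peaks is named in the labels or file headers. The deposited signal value per peak is a score on an unstated scale, and the authors also give −log10 of a q-value. No read number is in the files, so precision from depth could not be computed.

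Each gene got its highest-signal summit within 500 bp of any of its Ensembl release 115 start sites (pandas 2.3.3, pysam 0.24.0). Assignment was tested on planted summits. Relative signal is the signal value over the median of the strong set, which has as many peaks as the IDR list. Values are mean ± SD of the 2 replicates. With 1 group no p-value was computed, and shares stand beside those of all arm genes. Arms end at 22 Mb of 2L, 23 Mb of 3L and 22 Mb of X and start at 5.4 Mb of 2R and 4.2 Mb of 3R, rounded. Motif windows were cut from the RefSeq genome of the same assembly around Ensembl start sites, in place of a RefSeq promoter table that was planned.

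The genes and lists were chosen with earlier results of these data known. Paralogue families, head-to-head pairs, snoRNA hosts and other reaches for the TCT motif were added after values were seen. Full values are given for the 12 genes with the highest mean relative signal and the 5 largest and 5 smallest replicate ratios. Some genes of the set enter the counts and are not reported by name here. Of 25 ribosome assembly symbols 22 were matched. Alternatives covered distances, start-site choice, stricter lists, each replicate left out, borders moved by 0.5 Mb and other scales.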

Additional observations from a re-analysis of the deposited data

How the results depend on the processing

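Of 59 alternative values, 47 stayed within the limit set for a change (1.5-fold for a count) and 12 moved beyond it. With IDR summits, 34 genes became 12 in the upper 1003 IDR peaks (4.1% of arm genes) and 17 where an IDR summit also had to be in the strong sets of replicates 4 and 6 (5.82%). Using the strongest peaks of a single replicate, the count ran from 17 without replicate 4 to 42 without replicate 6, the median summit position from -109 to -29.5 bp, and summits shared with a neighbour from 12 to 27. In the strongest 1003 peaks, 17 genes stood in replicate 4 and 10 in replicate 6, against 3.73% and 4.15% of arm genes. Median relative signal was 1.98 against 1.23 for arm genes on the scale of arm promoter summits, and 0.429 without replicate 4 to 0.716 without replicate 6 on the reported scale. Within 250 bp, 12 summits were shared with a neighbour. TCT motifs within 2 bases were at 27 genes and within 20 bases at 78, and within 100 bp of the summit TATAAA was at 9 genes in place of 15 and CAGCTG at 1 in place of 3. Both TCT reaches were chosen after seeing the data. Motifs defined at the start site were not run in summit windows. No paired analysis was possible because the series has 1 group.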
